A study of Sus scrofa with 8 samples.

Results

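The 39 genes described here are interferon-stimulated antiviral genes: the sensors, transcription factors and effector proteins that cells make in response to interferon. They were measured by RNA-seq in the olfactory epithelium (OE) of sows sprayed with androstenone and of sows that were not. The genes were taken by symbol, and 38 of the 39 symbols had a row among the 22516 genes of the deposited tables. No identifier was matched to RTP4, and that gene was not analysed here. The list was drawn up with earlier results of these data known. The difference between the groups in these genes is therefore given as a description, with no test of the list and no p-value printed for a member. Counts of members past a cutoff on p are part of that description.

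OE is the nasal tissue that holds the olfactory sensory neurons, and androstenone is a steroid pheromone of boar saliva. The 4 sows, all in estrus and 8 months old, were crosses of Landrace boars and Rongchang dams. In the androstenone group 2 sows had Boarmate, a commercial spray in which androstenone is the main ingredient, applied to the nasal cavity. The 2 control sows received no solution at all, so that the spray and its other contents cannot be told apart from androstenone. OE was taken 30 min later, and the left and right sides of each sow gave separate libraries, 4 a group. The labels and methods do not say which libraries share a sow, so n = 4 below counts libraries from 2 sows, and the spread within a group mixes the side with the sow.

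Interferons are secreted proteins that warn cells of infection. Type I interferons bind the receptor formed by IFNAR1 and IFNAR2 and, through the kinases JAK1 and TYK2, activate a transcription factor complex that holds STAT2 and IRF9 and switches on the genes named here. Interferon gamma acts through another receptor, and its targets overlap with these. Many of the products bind viral RNA, stop translation, or attach the ubiquitin-like protein ISG15 to other proteins. Nasal epithelium is one of the first tissues that airborne viruses meet.

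Control 1 was shallow in the deposited counts, at 4178330, whereas totals elsewhere ran from 81580146 to 100685566. The paper lists about as many clean reads for control 1 as for the other libraries, and the reason for its low total is not known. Counting error in the values used here is widest for control 1. Even there every measured member had between 51 and 1065 counts. Control 4 stood apart, with 29.4% of its counts in its 10 most abundant genes and summed bone and cartilage markers of 58787 TPM (a level scaled for transcript length and library total), against 664 to 4146 TPM in the other libraries. Of the 7 measured markers of olfactory sensory neurons, RTP1, needed to bring odorant receptors to the cell surface, did not exceed 0.0380 TPM, and CNGA2, the olfactory transduction channel, lay between 0.279 and 5.01 TPM. CNGA4 stayed between 0.0842 and 0.699 TPM and GNAL between 0.497 and 8.87 TPM, while ADCY3 ran from 6.25 to 15.03 TPM, ANO2 from 3.18 to 50.4 TPM and STOML3 from 34.9 to 190.2 TPM. STOML3 was highest in control 3, androstenone 1 and androstenone 2, where the summed markers of respiratory ciliated cells were highest too. Its level is not read here as that of neurons alone. FOXJ1, the master regulator of motile cilia, lay between 73.2 and 531 TPM, so the tissue labelled OE also held ciliated cells. In bulk tissue, fewer cells of a type and less RNA per cell cannot be told apart.

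The antiviral genes were higher in the androstenone libraries as a group. All 38 measured members had a fitted log2 fold change (androstenone over control) above 0, from 0.28 for SAMD9 to 1.95 for OASL. Of all genes tested, 48.2% had a value above 0. The median was 1.02 over the members and −0.02 over all genes. At the cutoff of an unadjusted p below 0.05 and a log2 fold change of at least 1, 19 of the 38 members were called higher and 0 lower, beside 2.04% of all genes called higher and 4.38% called lower (6.42% in either direction). In CPM (counts scaled to a common library size, here to the library total times its normalization factor), the lowest androstenone library lay above the highest control library for 23 members (60.5%), beside 3.89% of all genes, and the reverse held for 0 members, beside 2.64%. In TPM, which carries no such factor, it did so for 21 members, beside 1.79% of all genes, and of the 23 it was ADAR and BST2 that overlapped on that scale. After Benjamini-Hochberg adjustment over all genes, 0 members and 0 genes passed edgeR's quasi-likelihood test at 0.05, while 27 members had an unadjusted p below 0.05 and a higher androstenone level, beside 5.09% of all genes, and 0 had one with a lower level, beside 6.24%. The likelihood ratio test of edgeR put 13 members and 200 genes past the adjusted threshold, DESeq2 21 members and 670 genes, and limma voom 0 of either.

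The count rested in part on control 4. Without that library 12 members were past the cutoff, beside 1.24% of all genes, and without control 3 there were 27, beside 4.48%. Without both control 1, the shallow library, and control 4 there were 9, beside 0.97% of all genes, and the median log2 fold change of the members was 0.74. In that fit 37 of the 38 members remained above 0, SAMD9 being the exception at −0.01. The 6 members past the cutoff here and in each of the 18 alternative fits were IRF7 (ENSSSCG00000012853), OAS2 (ENSSSCG00000009881), OASL (ENSSSCG00000009921), RSAD2 (ENSSSCG00000008648), EPSTI1 (ENSSSCG00000037572) and CXCL10 (ENSSSCG00000032474).

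**Figure D1:**
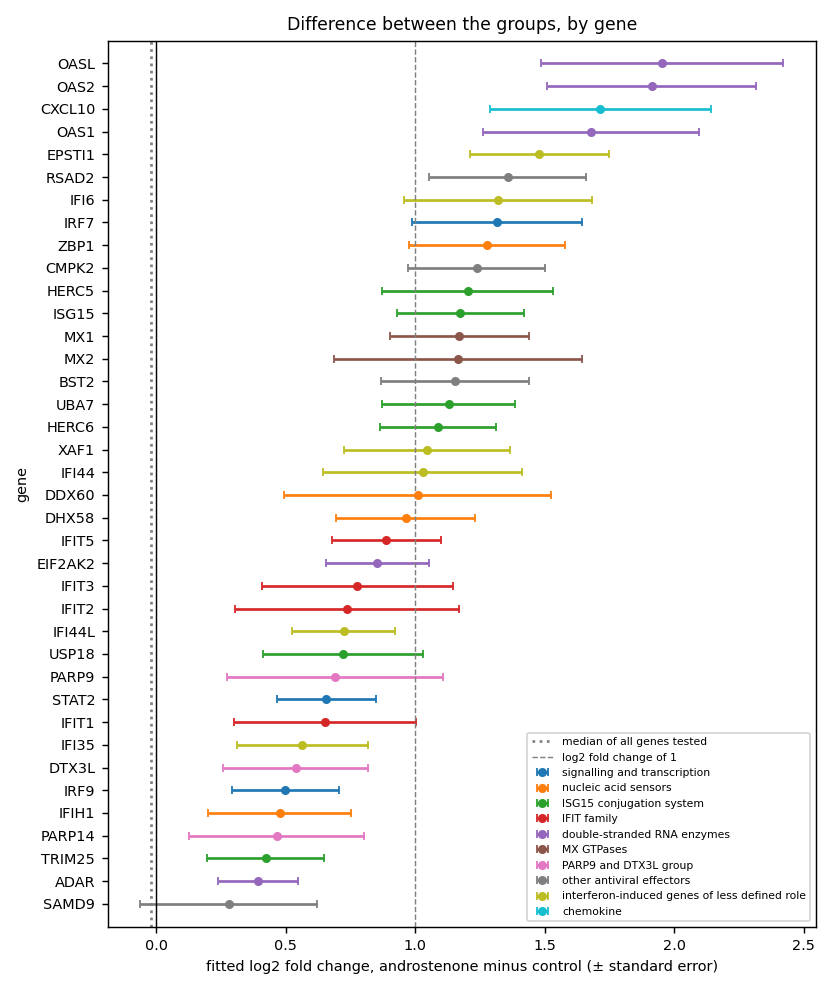
Fitted log2 fold change of the 38 measured antiviral genes (x axis, androstenone over control), each point 1 gene with its standard error as a bar, ordered by size and coloured by role, with a dashed line at a log2 fold change of 1. All points lie right of 0, from 0.28 for SAMD9 to 1.95 for OASL.

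Among the signalling genes, STAT2 had the highest mean TPM over the 8 libraries, although in the controls alone IRF9 was higher, at 59.2 TPM against 56.6 TPM. STAT2 is activated at the interferon receptor, IRF9 gives its complex the contact with DNA, and IRF7 drives the production of more type I interferon. STAT2 stood at 219, 186, 269 and 182 CPM in controls 1 to 4 and at 376, 356, 316 and 301 CPM in androstenone 1 to 4, a log2 fold change of 0.66 ± 0.19 SE. The groups did not overlap, and control 3 was the highest control. IRF7 was at 35.3, 33.9, 37.4 and 22.3 CPM in the controls and 113, 106, 53.4 and 48.4 CPM in the androstenone libraries, a log2 fold change of 1.31 ± 0.33 SE. Controls 1 to 3 lay close together for IRF7 with control 4 lower, and androstenone 1 and 2 stood well above androstenone 3 and 4. IRF9, whose groups overlapped through control 1 and control 3, averaged 64.6 ± 15.7 (SD, n = 4) CPM in control and 91.3 ± 10.7 (SD, n = 4) CPM in androstenone, and its log2 fold change was 0.50 ± 0.21 SE. Of the 3 genes, only IRF7 was past the cutoff.

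The sensors of foreign nucleic acid differed among themselves. IFIH1 (MDA5) and DHX58 (LGP2) belong to the helicase family of RIG-I and detect double-stranded RNA in the cytoplasm, DDX60 is a related helicase, and ZBP1 binds left-handed nucleic acid and can start cell death. DHX58, the most abundant of them in TPM, was at 27.3, 24.97, 25.9 and 11.4 CPM in the controls and at 46.9, 39.5, 43.4 and 44.5 CPM in the androstenone libraries (0.96 ± 0.27 SE on the log2 scale). Control 4 was far below the other controls for this gene, and the androstenone libraries were tightly grouped. ZBP1 was at 13.8, 15.2, 12.8 and 11.4 CPM in the controls and 23.6, 19.3, 37.1 and 48.7 CPM in the androstenone libraries (1.28 ± 0.30 SE on the log2 scale). Here the order inside the androstenone group was turned round, with androstenone 3 and 4 the highest. IFIH1 overlapped, with control 3 at 59.2 CPM above each androstenone library, and its fold change was 0.48 ± 0.28 SE. DDX60 had a log2 fold change of 1.01 ± 0.51 SE but one of the widest spreads, and control 3 at 92.5 CPM exceeded androstenone 3 and 4. Of the 4 sensors, ZBP1 alone was past the cutoff.

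In the ISG15 conjugation system 4 of 6 members were past the cutoff. ISG15 is a ubiquitin-like protein, UBA7 is its activating enzyme, HERC5 and HERC6 are HECT-type ligases, TRIM25 is a ligase that also acts on RIG-I, and USP18 removes ISG15 and dampens the receptor. ISG15 was at 44.6, 32.1, 51.3 and 23.7 CPM in the controls and 91.5, 75.7, 85.1 and 89.2 CPM in the androstenone libraries, and its mean level was 144 ± 55.9 TPM in control and 293 ± 24.1 TPM in androstenone (mean ± SD, n = 4). The difference of 1.17 ± 0.25 SE on the log2 scale came with a narrow androstenone range. UBA7 stood at 83.8, 64.8, 61.3 and 33.9 CPM in the controls against 137, 128, 131 and 136 CPM in the androstenone libraries, 1.13 ± 0.26 SE on the log2 scale. The androstenone libraries were again nearly equal, whereas control 4 was well under the other controls. For HERC5 the controls held 28.96, 23.96, 63.1 and 22.99 CPM and the androstenone libraries 86.8, 75.4, 82.99 and 75.3 CPM, 1.20 ± 0.33 SE on the log2 scale. HERC6, its neighbour on chromosome 8, held 80.7, 71.3, 123 and 62.9 CPM in the controls and 178, 175, 179 and 187 CPM in the androstenone libraries, 1.09 ± 0.22 SE on the log2 scale. In both ligases control 3 was the highest control and still lay below each androstenone library. TRIM25 (0.42 ± 0.23 SE) and USP18 (0.72 ± 0.31 SE) overlapped: for each, control 3 exceeded androstenone 3 and 4.

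The IFIT proteins bind viral RNA and hold back its translation, and 0 of the 4 measured members were past the cutoff. IFIT1, which recognizes RNA lacking the host cap methylation and was the most abundant in TPM, was at 52.2, 32.8, 80.9 and 24.4 CPM in the controls and 89.4, 66.2, 73.1 and 70.03 CPM in the androstenone libraries. Control 3 reached higher than androstenone 2, 3 and 4, so the groups overlapped, with a log2 fold change of 0.65 ± 0.35 SE. IFIT5 was the only one without overlap, at 36.6, 28.7, 46.1 and 45.9 CPM in the controls against 88.04, 77.4, 69.2 and 56.7 CPM in the androstenone libraries (0.89 ± 0.21 SE). IFIT2 (0.74 ± 0.43 SE) and IFIT3 (0.78 ± 0.37 SE) had control 3 above androstenone 3 and 4. IFIT2, IFIT3 and IFIT1 lie side by side on chromosome 14 from 101193421 to 101249486 (RefSeq annotation of Sscrofa11.1). Relatives within these families share sequence, so that how the authors' quantification split reads among them is uncertain.

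The enzymes and proteins acting on double-stranded RNA held the members with the 2 highest fold changes, OASL and OAS2. The 2′-5′-oligoadenylate synthetases OAS1 and OAS2 make the messenger that activates RNase L, OASL is a relative that enhances RIG-I signalling, EIF2AK2 (PKR) stops translation, and ADAR edits adenosine in RNA. OAS2 stood at 89.6, 72.6, 159 and 67.4 CPM in the controls and 531, 466, 255 and 210.5 CPM in the androstenone libraries, 1.91 ± 0.40 SE on the log2 scale. OAS1, 3.39 kb away on chromosome 14, was at 23.2, 24.5, 58.6 and 25.4 CPM in the controls and 155, 134, 70.2 and 64.3 CPM in the androstenone libraries, 1.68 ± 0.42 SE on the log2 scale. In both, control 3 was over the other controls, and androstenone 1 and 2 were over androstenone 3 and 4. OASL, less abundant in CPM, was at 10.5, 6.66, 20.2 and 5.82 CPM in the controls and 61.9, 50.2, 28.8 and 26.4 CPM in the androstenone libraries, 1.95 ± 0.47 SE on the log2 scale. For OASL too, control 3 was the highest control and androstenone 1 and 2 were over androstenone 3 and 4. EIF2AK2 and ADAR did not overlap in CPM but differed less. EIF2AK2 was at 67.4, 56.2, 81.8 and 44.3 CPM in the controls and 112, 109, 119.8 and 109 CPM in the androstenone libraries, 0.85 ± 0.20 SE on the log2 scale. ADAR was at 106, 87.1, 102 and 77.2 CPM in the controls and 123, 113, 129.6 and 122 CPM in the androstenone libraries, 0.39 ± 0.15 SE on the log2 scale. Of the 5, OAS1, OAS2 and OASL were past the cutoff. OAS2 and OAS1 lie together on chromosome 14 from 38827667 to 38867427 (Sscrofa11.1) and share sequence, so the split of reads between them is uncertain too.

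The MX proteins are dynamin-like GTPases that trap viral components, and both were past the cutoff with nearly equal fold changes. MX1 was at 96.8, 77.1, 134 and 55.5 CPM in the controls and 228, 197, 213 and 179 CPM in the androstenone libraries, 1.17 ± 0.27 SE on the log2 scale. MX2, 21.4 kb away on chromosome 13, had a log2 fold change of 1.17 ± 0.48 SE with a larger error. Its control 3 at 261 CPM exceeded androstenone 3 at 204 CPM and androstenone 4 at 203 CPM, while MX1 kept all controls below all androstenone libraries. For PARP9, DTX3L and PARP14, which form or work with a complex that modifies proteins by ADP-ribose and ubiquitin, 0 of 3 were past the cutoff and 0 of 3 were free of overlap. PARP9, the most abundant in TPM, was at 52.2, 34.5, 93.4 and 29.1 CPM in the controls and 109.7, 114, 58.4 and 55.6 CPM in the androstenone libraries, 0.69 ± 0.42 SE on the log2 scale. Here control 3 lay above androstenone 3 and 4. DTX3L (0.54 ± 0.28 SE) and PARP14 (0.46 ± 0.34 SE) also overlapped through control 3. DTX3L and PARP9 overlap by 395 bp on chromosome 13, and the sources do not state whether strand was used in counting, so reads of the overlap cannot be told apart.

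Other effectors had 3 of 4 measured members past the cutoff. RSAD2 (viperin) makes a chain-terminating nucleotide, CMPK2 supplies its substrate, BST2 (tetherin) holds budding virions at the cell surface, and SAMD9 restricts poxviruses. RSAD2 was at 26.7, 21.00, 32.4 and 11.96 CPM in the controls and 72.2, 60.2, 46.7 and 56.2 CPM in the androstenone libraries, 1.36 ± 0.30 SE on the log2 scale. CMPK2, its neighbour on chromosome 3, was at 22.8, 22.9, 42.6 and 19.99 CPM in the controls and 73.7, 70.04, 58.1 and 53.96 CPM in the androstenone libraries, 1.24 ± 0.26 SE on the log2 scale. The pair differed in library order, since for RSAD2 androstenone 3 was the lowest of its group and for CMPK2 androstenone 4 was. BST2 had the highest mean TPM of the role over the 8 libraries, although in the controls alone SAMD9 was higher, at 32.4 TPM against 26.2 TPM. BST2 was at 25.1, 24.3, 16.3 and 23.8 CPM in the controls and 42.97, 28.5, 65.5 and 61.7 CPM in the androstenone libraries, 1.15 ± 0.29 SE on the log2 scale. It is the member whose control 3 was the lowest control instead of the highest, and androstenone 3 and 4 were above androstenone 1 and 2. SAMD9 had the smallest difference of all members (0.28 ± 0.34 SE), with control 3 at 186 CPM as its highest library.

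Of the interferon-induced genes whose role is less settled, 4 of 6 were past the cutoff. IFI6, a mitochondrial and endoplasmic reticulum protein and the member with the highest level in TPM, was at 177, 123, 238 and 89.6 CPM in the controls and 574, 410.0, 318 and 264 CPM in the androstenone libraries, 1.32 ± 0.36 SE on the log2 scale. Its mean level was 318 ± 148 TPM in control and 710.3 ± 222 TPM in androstenone (mean ± SD, n = 4). XAF1, which promotes cell death, was at 20.95, 14.2, 21.2 and 7.56 CPM in the controls and 40.00, 29.1, 31.9 and 30.3 CPM in the androstenone libraries, 1.04 ± 0.32 SE on the log2 scale. EPSTI1, named for the contact of epithelium and stroma, stood at 13.1, 13.4, 11.6 and 6.86 CPM in the controls and 39.1, 35.3, 26.01 and 24.6 CPM in the androstenone libraries, 1.48 ± 0.27 SE on the log2 scale. EPSTI1 was called in each alternative, and XAF1 lay close to the cutoff. IFI44L was at 112, 97.2, 138 and 79.2 CPM in the controls and 195, 183, 163 and 164 CPM in the androstenone libraries, 0.72 ± 0.20 SE on the log2 scale, without overlap. IFI44, 10.4 kb from it on chromosome 6, had a log2 fold change of 1.03 ± 0.38 SE and overlapped through control 3. IFI35 (0.56 ± 0.25 SE) overlapped through control 1 and control 3.

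CXCL10 is a chemokine that draws T cells and NK cells bearing CXCR3, and was past the cutoff. It was at 72.7, 44.5, 36.3 and 21.5 CPM in the controls and 207, 179, 99.2 and 87.1 CPM in the androstenone libraries, 1.71 ± 0.43 SE on the log2 scale. The controls ran from control 4 lowest to control 1 highest, unlike most members, where control 3 was highest.

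**Figure D2:**
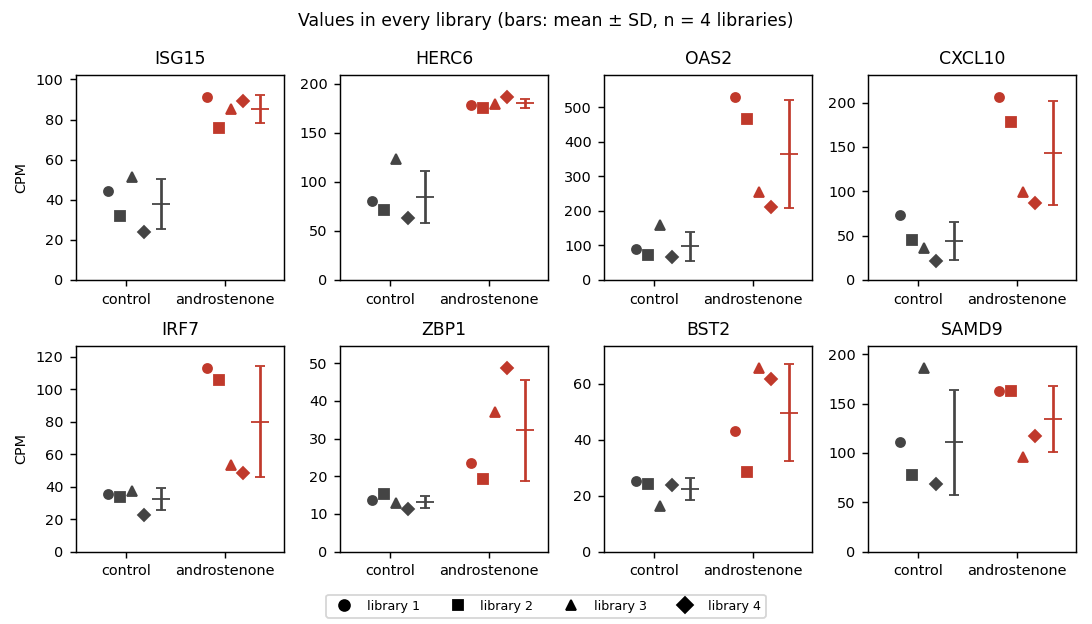
CPM of 8 antiviral genes (ISG15, HERC6, OAS2, CXCL10, IRF7, ZBP1, BST2 and SAMD9) in the control and androstenone groups (y axis, linear from 0), each point 1 library with its shape giving the library number, and bars giving the mean ± SD (n = 4). For OAS2 the androstenone libraries sit between 210.5 and 531 CPM and each control library is lower.

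**Figure D3:**
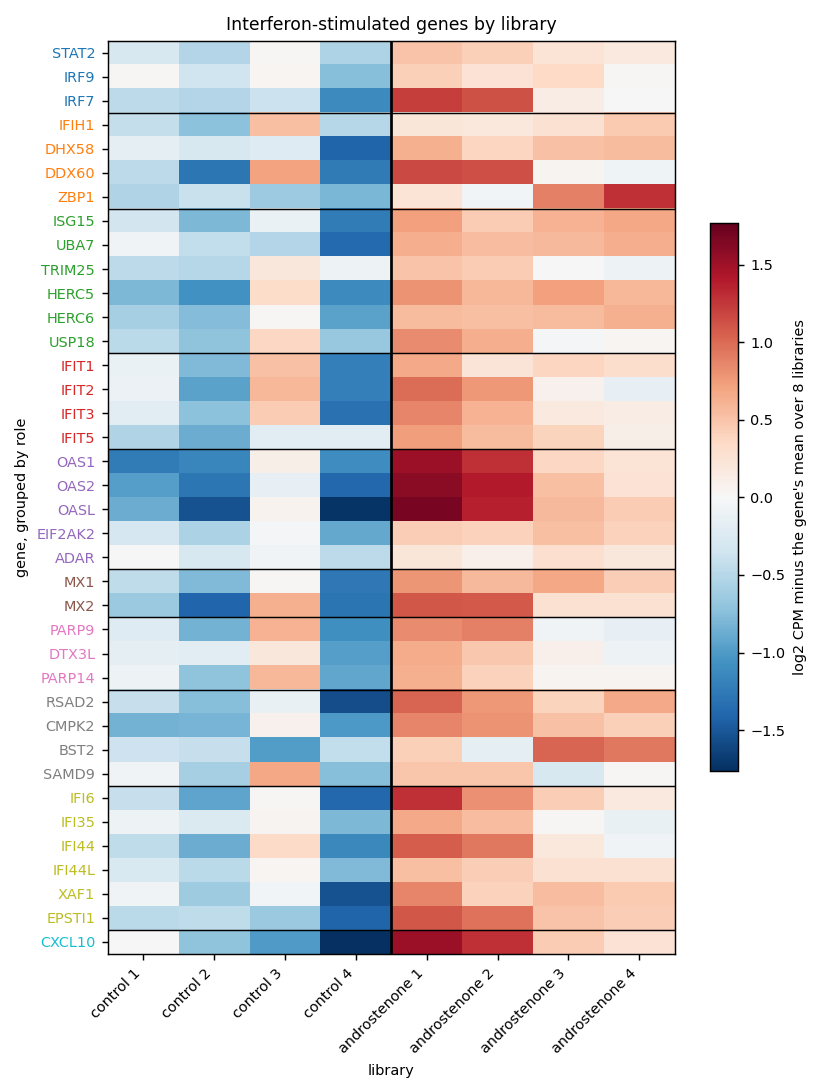
Level of the 38 measured members in each library (columns), as log2 CPM minus the gene's own mean over the 8 libraries (colour), with rows grouped by role. The members are mostly lowest in control 4 and highest in androstenone 1, and control 3 is the highest control in 31 of them. The shares of all genes lowest in control 4 or highest in androstenone 1 were not computed.

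Across libraries the members moved largely together. The summed TPM of the members was 1764, 1357, 2299 and 823 in controls 1 to 4 and 3768, 3315, 2616 and 2516 in androstenone 1 to 4, which is 0.156 ± 0.0625% of all TPM in control and 0.305 ± 0.0594% in androstenone (mean ± SD, n = 4). Androstenone 1 was the highest library for 30 members and control 4 the lowest for 30, and the matching shares over all genes were not computed. Control 3 was the highest control for 31 members, beside 30.6% of all genes. In all 15 members whose groups overlapped, control 3 exceeded the lowest androstenone library. Control 1 did so in 4 (IRF9, IFIT2, SAMD9 and IFI35), and control 2 and control 4 in 0. For 34 members all androstenone libraries lay above controls 1, 2 and 4, a count made after control 3 was seen to carry the overlaps, and 9.21% of all genes met the same condition. The Pearson correlation of log2 CPM over the 8 libraries had a median of 0.858 over the 703 pairs of members, and of 0.733 after each group's mean had been subtracted. These values are a description over libraries that share sows, depth and tissue make-up.

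Within the androstenone group, androstenone 1 and 2 lay apart from androstenone 3 and 4 in most genes, members or not. In 24 members androstenone 1 and 2 both lay above the other pair, beside 34.8% of all genes, and in 4 members, IFIH1, ZBP1, HERC6 and BST2, both lay below, beside 34.9% of all genes. Over all genes the mean chi-square per gene between libraries was 112 for androstenone 1 and 2 and 117 for androstenone 3 and 4, against 738 to 1119 across the pairs. The part of the sow, the side or the tissue make-up in that split was not tested. The highest to lowest library ratio had a median of 2.39 over the members in control and of 1.57 in androstenone. It was wider in control for 34 members, the exceptions being BST2, IRF7, OAS2 and ZBP1. In 10 members, among them ISG15, UBA7, DHX58, HERC5 and HERC6, the androstenone libraries stayed within a ratio of 1.25. No share over all genes was computed for these ratios. Control 3 was the highest control for 31 members, beside 30.6% of all genes. Control 4, which stood apart in make-up, was the lowest control for 30, with no share over all genes computed. Control 1, the shallow library, was the highest control for 5 and the lowest for 1. The wider control range is not read as particular to the members.

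**Figure D4:**
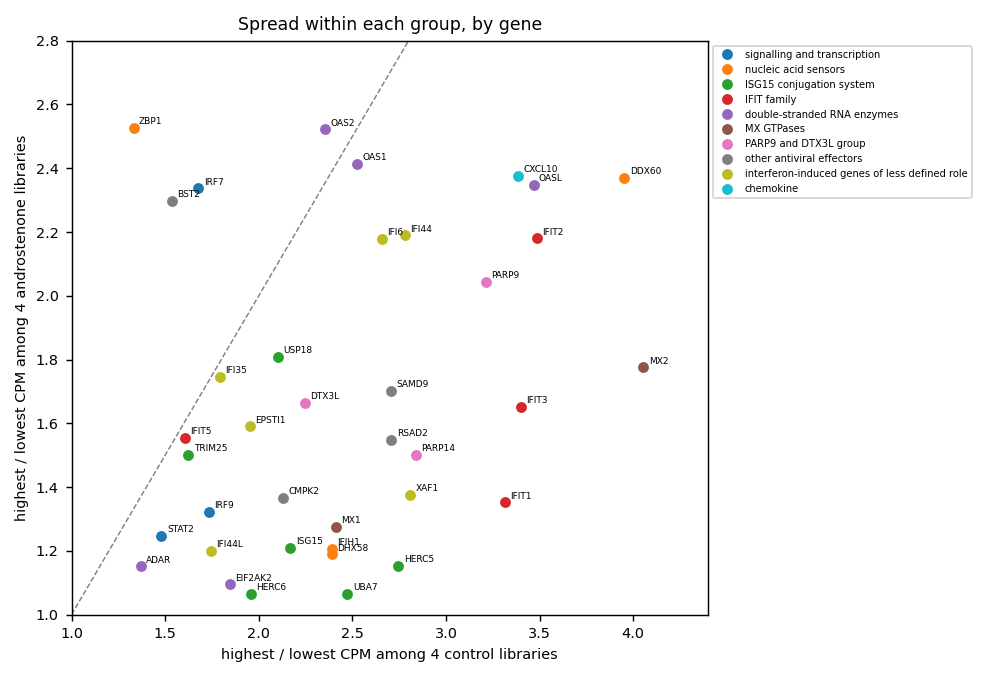
Ratio of the highest to the lowest CPM among the 4 control libraries (x axis) and the 4 androstenone libraries (y axis), each point 1 of the 38 measured members, coloured by role, with the dashed line at equality. Of the members, 34 lie below the line, and the share of all genes that would do so was not computed.

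The markers of other cell types moved with some of these differences. The 4 measured neutrophil markers summed to 134, 55.8, 349.9 and 111 TPM in controls 1 to 4 and to 756, 1339, 561 and 783 TPM in androstenone 1 to 4, without overlap. S100A12 supplied most of this sum in each library, from 40.3 TPM in control 2 to 1142 TPM in androstenone 2, so the sum largely follows that gene. S100A8, S100A12 and CSF3R were higher without overlap and CXCL8 was not. The sum was tested for all 10 marker lists by a two-sided exact permutation test over 70 assignments of the 8 libraries. The test treats the libraries as separate units although 2 come from each sow, so its p-values do not measure the spread between sows. The neutrophil list had an exact permutation p = 0.0286, the smallest that 4 against 4 allows, and 0.286 after adjustment over the 10 lists. No neutrophil marker measured was at 0 in any library, but in control 1 S100A8 had 5 counts and CXCL8 had 16. The bone and cartilage list ran from 1383 to 58787 TPM in control and from 664 to 1856 TPM in androstenone (exact permutation p = 0.0571, adjusted 0.286). The ciliated cell list was 1430 TPM in control 3, 1085 and 1291 TPM in androstenone 1 and 2, and 246 to 665 TPM in the other libraries. Control 3 was the highest control for 31 members, as given above, and androstenone 1 the highest androstenone library for 30. The ciliated list and the neutrophil list were both higher in androstenone 2 than in androstenone 1. In androstenone 3 and 4 the ciliated list was at 368 and 330 TPM, and in control 1 at 665 TPM. The members' summed TPM in each library is given above. The correlation of a member with the ciliated markers over the 8 libraries ran from −0.38 for BST2 to 0.91 for SAMD9, with a median of 0.552, and with the neutrophil markers from 0.519 for BST2 to 0.961 for CMPK2, with a median of 0.849. With the epithelial markers it ran from 0.0942 for BST2 to 0.978 for IFIT2, with a median of 0.822, and with the bone and cartilage markers from −0.940 for DHX58 to −0.185 for TRIM25, with a median of −0.695. For T and NK cell markers the median was 0.389, and for B and plasma cell markers 0.0316. For plasmacytoid dendritic cell markers it was −0.0558, and for macrophage and monocyte markers −0.325. These correlations hold the difference between the groups as well as the spread within them. None of them was computed after subtracting each group's mean. The epithelial list summed to 434 to 2018 TPM in control and 959 to 2193 TPM in androstenone, and each of its 4 measured markers had a fitted log2 fold change above 0, from 0.49 for EPCAM to 0.84 for KRT8, with overlapping groups and none past the cutoff. The lists of macrophages and monocytes, plasmacytoid dendritic cells, T and NK cells, B and plasma cells, olfactory sensory neurons and nasal glands also overlapped between the groups. The part of these cell types in the members' difference was not tested.

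**Figure D5:**
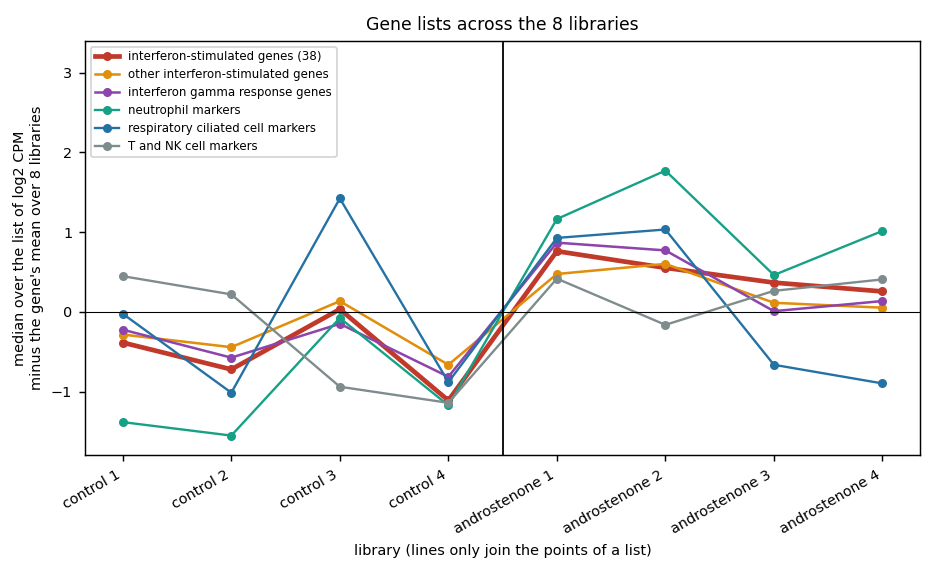
Median level of the 38 members, of other interferon-stimulated genes, of interferon gamma response genes and of neutrophil, ciliated cell and T and NK cell markers in each of the 8 libraries (y axis, log2 CPM minus each gene's own mean, median over the list). Lines only join the points of a list. The members run from −1.11 in control 4 to 0.76 in androstenone 1.

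Other genes of the interferon pathway were taken from lists that hold none of the 39. Of 70 measured genes in the ligand, receptor, induction, other interferon-stimulated, interferon gamma response and JAK-STAT regulator lists, 10 were called higher (edgeR quasi-likelihood test, unadjusted p below 0.05 and log2 fold change of at least 1) and 0 lower, beside the 2.04% of all genes called higher. Their adjusted p-values ran from 0.378 to 0.435. By list, 2 of 4 measured ligands, 0 of 11 receptors and JAK-STAT genes, 1 of 14 induction genes, 4 of 21 other interferon-stimulated genes, 3 of 12 gamma response genes and 0 of 8 regulators were called. The ligand list held 9 symbols, and no identifier was matched to IFNA1, IFNW1, IFNL1, IFNL3 or IFNL4.

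Of the ligands, IFNB1, which encodes interferon beta, had 0 counts in each control library and 13, 2, 1 and 3 counts in androstenone 1 to 4. Against a floor of 3 counts over the control group it was at least 4.64-fold higher, on few reads, and without androstenone 1 at least 1.98-fold higher on 6 counts. Control 1 was too shallow to show such a level. IFNG, interferon gamma, was at 1.85, 0.753, 0.574 and 0.241 CPM in the controls and 3.34, 2.50, 1.43 and 1.71 CPM in the androstenone libraries (1.61 ± 0.59 SE, adjusted p = 0.416), with overlap through control 1. RIGI, the sensor of the IFIH1 family, stood at 31.4, 21.4, 43.04 and 16.5 CPM in the controls and 74.3, 65.8, 75.98 and 73.8 CPM in the androstenone libraries (1.37 ± 0.29 SE, adjusted p = 0.378), without overlap. The other interferon-stimulated genes called were ISG20 (1.35 ± 0.57 SE), PARP12 (1.06 ± 0.27 SE), UBE2L6 (1.25 ± 0.28 SE), the conjugating enzyme for ISG15, and LY6E (1.07 ± 0.41 SE). Those of the gamma response were CXCL11 (2.12 ± 0.66 SE), GBP1 (1.33 ± 0.36 SE) and WARS1 (1.56 ± 0.49 SE). Of these, PARP12, UBE2L6 and GBP1 did not overlap in CPM, while ISG20, LY6E, CXCL11 and WARS1 did. In TPM PARP12 overlapped too, with control 3 at 28.3 TPM and androstenone 4 at 27.97 TPM.

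Outside the members, 10 genes followed the members' median profile most closely over the 8 libraries, among 15907 genes with a mean of at least 1 CPM. They were HSH2D, FUNDC1, PSME2, ISG12(A), TAP1, PARP12, MSI2, ACKR4, TARS2 and MDK, with Pearson r from 0.992 for HSH2D to 0.976 for MDK. ISG12(A) is an interferon-induced gene by name, PSME2 is a proteasome activator subunit and TAP1 carries peptides for class I presentation. HSH2D was at 13.4, 11.7, 20.9 and 5.94 CPM in controls 1 to 4 and at 48.5, 43.6, 30.9 and 28.6 CPM in androstenone 1 to 4. These are likenesses over 8 libraries, picked as the highest of many.

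The members were spread over 13 chromosomes, counting the 36 that had coordinates in RefSeq's Sscrofa11.1 annotation (IFIT5 and SAMD9 had none). They formed 9 pairs of neighbours. Besides those named above, RSAD2 and CMPK2 lie on chromosome 3 from 128880853 to 128917873, MX2 and MX1 on chromosome 13 from 204798633 to 204868927, HERC5 and HERC6 on chromosome 8 from 130532256 to 130665591, IFI44 and IFI44L on chromosome 6 from 134634679 to 134679212, and PARP14 lies 84.9 kb from DTX3L on chromosome 13.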

How the data were processed

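RNA was measured in 8 OE libraries, 4 control and 4 androstenone, grouped by the labels. Per the study's methods, fastp 0.23.1 filtered the reads by base quality, after which Kallisto 0.48.0 assigned them to Sscrofa11.1 transcripts (Ensembl release 108). The deposited values are estimated counts per gene, which need not be whole and are not normalized, and TPM, which the authors' tool scales for transcript length and library total. The sources used here do not state the step from transcripts to genes.

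The members, the role, pathway and marker lists and the tests were chosen with earlier results of these data known. Gene names came from a table that matched 15527 of 22516 identifiers, and coordinates from RefSeq's Sscrofa11.1 annotation.

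Estimated counts were rounded, and genes with a rounded count of 1 or more in some library (21318) were fitted over all 8 libraries with TMM normalization and edgeR 4.0.16 (quasi-likelihood test, group as the only term) in R 4.3.3. The cutoff is that of the study's methods (unadjusted p below 0.05, log2 fold change of 1 or more in size). Adjusted p-values are Benjamini-Hochberg over all genes. The p-values measure the spread between libraries, and 2 libraries come from each sow. Likeness was the Pearson correlation of log2 CPM (prior count 2). The fit was tested on simulated data first.

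Each member is named once, with values in every library for the most abundant of each role, those whose groups do not overlap and the 3 largest fold changes. Pathway genes past the cutoff are named, and 1 other gene of the rule is not reported here. Alternatives were DESeq2 1.42.0, edgeR's likelihood ratio test, voom and log2(TPM + 0.1) or log2(TPM + 1) with limma 3.58.1, RLE size factors, library size only, filterByExpr, the replicate number as a block, and each library left out. The fit without control 1 and control 4 was added after the values were seen.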

Additional observations from a re-analysis of the deposited data

Results flagged for a closer look

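Of 99 sets of 4 library values in a group, 8 had a library far from the other 3 by Dixon's test, and chance gives about 5% of such sets. In control 3, HERC5 was at 63.1 CPM against 23.0 to 29.0 CPM in the other controls, USP18 at 80.6 against 38.3 to 45.2 CPM, OAS1 at 58.6 against 23.2 to 25.4 CPM, CMPK2 at 42.6 against 19.99 to 22.9 CPM, and WARS1 at 171 against 85.9 to 95.6 CPM. BST2 in the same library was at 16.3 CPM, below the 23.8 to 25.1 CPM of the other controls. DHX58 in control 4 was at 11.4 CPM against 24.97 to 27.3 CPM in the others. IFNB1 in androstenone 1 was at 0.136 CPM, from 13 counts, against 0.0111 to 0.0299 CPM in the other androstenone libraries.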

How the results depend on the processing

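The median log2 fold change of the members kept its direction under all 18 alternatives run, and ran from 0.82 to 1.17 when 1 library at a time was left out. The count of members past the cutoff was 19 as reported and ran from 12 (without control 4) to 27 (without control 3) in those fits, and was 9 without control 1 and control 4. For the other pathway genes, 10 were past the cutoff as reported, 6 on log2(TPM + 1), and 6 to 19 with 1 library left out, the highest without control 3 (18 higher and 1, IFNK, lower) and the lowest without control 2 or androstenone 1. Without control 1 and control 4 there were 4. For the 25 members given with values in every library, 420 of 450 alternative values kept their direction and their side of the cutoff, 22 fell short of it, 8 passed it and 0 changed sign. The cause of these moves was not tested.

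The same-numbered libraries of the 2 groups did not deviate together (correlations −0.035, −0.498, −0.599 and 0.173 over 18347 genes), so the numbers do not pair them. With the replicate number as a block, 20 members and 6 pathway genes were past the cutoff, beside 1.32% of all genes called higher, and the members' median was 1.09. Depth limits low genes such as IFNB1, most of all in control 1.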

Other observations

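Several pathway genes outside the 39 had androstenone libraries above each control library in CPM while their fold change stayed under the cutoff. They were PML, which forms nuclear bodies, LGALS3BP, a secreted glycoprotein, CMTR1, which methylates the RNA cap, the GTPase GBP2, the transcription factor IRF1, the adhesion molecule ICAM1 and PTPN2, a phosphatase of the JAK-STAT pathway. With those past the cutoff, 12 of the 70 pathway genes had no overlap in CPM in that direction and 0 in the other, beside 3.89% and 2.64% of all genes. Of the 12, PARP12 and GBP2 overlapped in TPM. CMTR1 was at 58.1, 60.1, 62.2 and 59.6 CPM in controls 1 to 4 and at 75.9, 77.6, 90.6 and 90.4 CPM in androstenone 1 to 4, so that here control 3 did not stand out from the other controls. Its log2 fold change was 0.48 ± 0.13 SE (edgeR quasi-likelihood test, adjusted p = 0.393).

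The kinases JAK1 and TYK2 had fold changes near 0. TYK2 was at 153, 141, 147 and 139 CPM in controls 1 to 4 and at 147, 154, 139.9 and 135 CPM in androstenone 1 to 4, a log2 fold change of −0.01 ± 0.13 SE, and JAK1 had −0.12 ± 0.20 SE. TRIM34, an interferon-induced member of the TRIM family, had −0.50 ± 0.57 SE with overlapping groups.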
